A study of Homo sapiens with 4 samples.

Results

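CALB1 and ZNF114 are 2 of the 28278 genes in the deposited table. They were chosen by symbol because earlier work on these data had called both higher in the library with a SETDB1 hairpin than in the Control library, so that difference is given here as a description, without a test. According to the labels, the cells were HepG2, a line from a human liver tumour. Lentiviruses brought in a short hairpin RNA, and sorafenib, which inhibits several kinases, was then given to every culture at 10 µM for 48 hours. The groups were cells with a Control hairpin (1 library), cells with the first or the second of 2 hairpins against ATF7IP (1 library each) and cells with a hairpin against SETDB1 (1 library). All 4 libraries had the virus and the drug, so untreated cells were not compared, and the SETDB1 values rest on 1 hairpin. The 2 ATF7IP libraries differ in their hairpin, so their spread joins hairpin, culture and library. The labels do not say whether the cultures were grown separately.

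SETDB1 is a histone methyltransferase that places trimethyl marks on lysine 9 of histone H3, a mark of silent chromatin, and ATF7IP is its nuclear partner, which keeps SETDB1 stable and active. Many SETDB1 sites are chosen by zinc finger proteins that bind DNA and recruit the corepressor TRIM28, and many genes of zinc finger proteins themselves carry the mark. CALB1 encodes calbindin, an EF-hand protein that buffers calcium in neurons such as cerebellar Purkinje cells and in the distal tubule of the kidney. ZNF114 encodes a zinc finger protein of the C2H2 type, the class to which most DNA-binding repressors of this kind belong.

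Library totals ran from 70236882 to 73791097 counts, and about 4 counts were taken as 1 sequenced fragment, an assumption from the pile-up of low values. A gene with 3 fragments or fewer, 12 counts, was treated as not detectable, which corresponds to 0.156 to 0.173 CPM (the count scaled to library size). Intervals cover counting error only, since copies made by PCR are not independent molecules. The SETDB1 transcript measured 47.7 CPM in Control, 52.1 and 46.8 with ATF7IP hairpins 1 and 2 and 11.99 with the SETDB1 hairpin. ATF7IP was at 59.1 CPM in Control, 18.3 and 18.8 with its own hairpins and 97.8 with the SETDB1 hairpin. Hepatocyte genes went against the cell line label: of 16 such genes, 13 were at or under 12 counts in every library, and ALB, AFP, APOB, TTR, FGA and FOXA2 were at 0 in all 4. Their summed level was between 0.468 and 1.22 CPM per library. The libraries are therefore called by their hairpins below, and the values of CALB1 and ZNF114 are those of cells labelled HepG2.

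The 2 genes shared a high level with the SETDB1 hairpin and parted in the ATF7IP libraries. CALB1 was high in the SETDB1 library and low or under the detection floor in the other 3. ZNF114 was not detectable in Control, low but above the floor with both ATF7IP hairpins, and highest with the SETDB1 hairpin. In bulk RNA, more cells that make a transcript and more of it per cell cannot be told apart.

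CALB1 (chromosome 8, 90058608 to 90082879 on hg38, minus strand) had 28 counts in Control, 8 and 16 with ATF7IP hairpins 1 and 2, and 694 with the SETDB1 hairpin. This was 7, 2, 4 and 174 fragments in the same order. The CALB1 level was 0.403 CPM in Control (95% exact Poisson interval 0.162 to 0.830), 0.113 in hairpin 1 (0.0137 to 0.410) and 0.208 in hairpin 2 (0.0568 to 0.534). With the SETDB1 hairpin it was 9.76 CPM (8.38 to 11.3). The interval of the SETDB1 library lay above those of the other 3, which overlapped each other, and hairpin 1 was under the floor. Among the 16900 genes tested, CALB1 exceeded 15.4% in Control, 4.94% and 9.27% with the ATF7IP hairpins and 41.5% with the SETDB1 hairpin, so even its highest level was below the median gene.

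ZNF114 (chromosome 19, 48270081 to 48287608 on hg38, plus strand) had 2 counts in Control, 55 and 58 with ATF7IP hairpins 1 and 2, and 212 with the SETDB1 hairpin. Taken as fragments this was 1, 14, 15 and 53, where the 2 Control counts amount to less than a whole fragment and were rounded up. The Control level below uses the 2 counts, and its interval uses the 1 fragment. The ZNF114 level was 0.0288 CPM in Control (95% exact Poisson interval 0.00146 to 0.321), 0.780 in hairpin 1 (0.434 to 1.33) and 0.756 in hairpin 2 (0.437 to 1.29). With the SETDB1 hairpin it was 2.98 CPM (2.23 to 3.90). The intervals of the 2 ATF7IP hairpins nearly coincided, lay above that of Control and lay below that of the SETDB1 library. ZNF114 exceeded 2.33% of tested genes in Control, 20.6% and 20.3% with the ATF7IP hairpins and 30.5% with the SETDB1 hairpin.

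Per kilobase of transcript (2533 bases for CALB1 and 2206 for ZNF114, GENCODE), which allows the genes to be set side by side, CALB1 was at 0.159 CPM per kilobase in Control, 0.0448 and 0.0823 with the ATF7IP hairpins and 3.85 in the SETDB1 library. On the same scale ZNF114 was at 0.0130 in Control, 0.353 and 0.342 with the ATF7IP hairpins and 1.35 in the SETDB1 library. CALB1 was the higher of the 2 in Control and SETDB1 knockdown, and ZNF114 was the higher with both ATF7IP hairpins. The split of fragments between them needs no library scaling and went the same way, though in Control it rests on 8 fragments and its interval includes an even split. ZNF114 gave 12.5% of their joint fragments in Control (1 of 8, exact Clopper-Pearson interval 0.316 to 52.7), 87.5% in hairpin 1 (14 of 16, 61.7 to 98.4), 78.9% in hairpin 2 (15 of 19, 54.4 to 93.9) and 23.3% with the SETDB1 hairpin (53 of 227, 18.0 to 29.4). The intervals of the ATF7IP libraries did not overlap those of Control or the SETDB1 library. The Control and SETDB1 values chose the genes, and each interval covers only counting error in 1 library, so this is a description.

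SETDB1 knockdown against Control was the comparison that chose the genes. CALB1 fragments were 24.3-fold higher in SETDB1 knockdown (95% exact interval 11.5 to 61.3). The fitted log2 fold change was 4.59 ± 0.59 (approximate SE, derived from the edgeR F statistic). ZNF114 fragments were 51.8-fold higher (8.90 to 2084), with a fitted log2 fold change of 6.61 ± 0.81. The ZNF114 interval is wide because Control held 1 fragment. That fragment was rounded up from 2 counts, while the fit used the counts, so the ratio lies below the fitted fold change. Both genes are among the 8 of 16900 called higher in this comparison (0.0473%), which is how they were chosen. That call depended on the method. DESeq2 also made it for both genes. It was lost for both by edgeR with DESeq2 size factors, by edgeR with no filter on low counts and by limma-trend. Since this call chose the genes, it is no test of them. By fitted fold change, 315 tested genes stood above CALB1, of which 311 were at 0 in Control, and 182 stood above ZNF114, of which 181 were at 0 in Control.

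ATF7IP knockdown against Control shows whether loss of the partner was accompanied by the same change, and it shares the Control library with the comparison above. ZNF114 was 13.8-fold above Control in hairpin 1 (95% exact interval 2.10 to 583) and 13.6-fold in hairpin 2 (2.09 to 572). The 2 hairpins differed by a ratio of 0.985 (0.443 to 2.202). Ratios to Control rest on its rounded-up fragment and so lie below the fitted fold change. The fitted log2 fold change of ZNF114 was 4.66 ± 0.77 and the gene was not called (adjusted p = 0.0867 by edgeR, unadjusted p = 0.000184), with both hairpins above Control. DESeq2 placed it under the threshold, at an adjusted p of 0.0441, and over the alternatives tried the adjusted p ranged from 0.0441 to 0.214. The low Control value was part of what chose ZNF114, which favours a difference from Control here too, so these p-values are not independent of the choice. In this comparison edgeR called 13 of 16900 genes (0.0769%).

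CALB1 did not share that pattern. It was at 0.282 times the Control level in ATF7IP hairpin 1 (0.0285 to 1.48) and 0.518 times in hairpin 2 (0.111 to 2.04). The intervals include no difference, and the fitted log2 fold change of −1.31 ± 0.52 was not called (edgeR adjusted p = 0.487), with both hairpins below Control.

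SETDB1 against ATF7IP knockdown reuses the SETDB1 library, so it too is a description. CALB1 was 86.3-fold higher with the SETDB1 hairpin than in ATF7IP hairpin 1 (23.5 to 718) and 46.9-fold higher than in hairpin 2 (18.0 to 174). ZNF114 was 3.75-fold (2.05 to 7.33) and 3.81-fold (2.12 to 7.28) higher. Fitted over both hairpins, the log2 fold changes were 5.90 ± 0.48 for CALB1 and 1.95 ± 0.46 for ZNF114. CALB1 was called by edgeR but not by limma-trend, and ZNF114 was called by neither. The values of the SETDB1 library chose the genes, so this call is no test of them. Both genes were thus higher with the SETDB1 hairpin than with either ATF7IP hairpin, CALB1 by the larger factor.

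**Figure D1:**
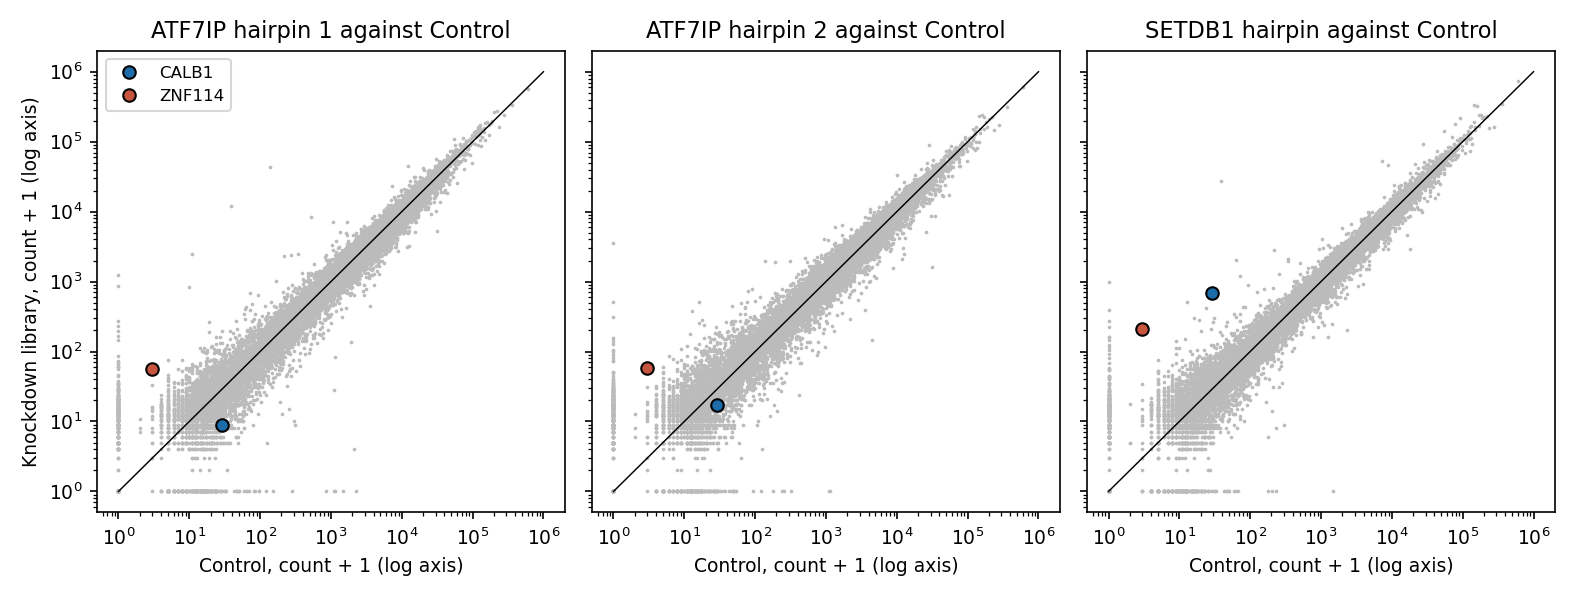
Count + 1 of every tested gene in each knockdown library (y) against Control (x), both on log axes, with the line of equal counts; grey points are the 16900 genes. ZNF114 lies above the line in all 3 panels, with 55, 58 and 212 counts against 2, and CALB1 lies above it in the SETDB1 panel alone, with 694 counts against 28.

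How often such patterns occur was counted over all tested genes, with a fold of 10 and the floor chosen after the values were seen. The SETDB1 library was at least 10-fold above every other library for 4 genes (0.0237%), which were CALB1, PSG6, ZNF788P and CCR5AS. The same held of Control for 4 genes, of ATF7IP hairpin 1 for 10 and of hairpin 2 for 4. Control was at least 10-fold below every other library for 8 genes (0.0473%), among them ZNF114, against 7, 6 and 5 genes for ATF7IP hairpins 1 and 2 and the SETDB1 library. Between 4 and 10 genes thus met the rule for each library and direction. Among those 8 genes ZNF114 stood beside PSG9, a pregnancy-specific glycoprotein gene, the secreted hormone gene STC1, the procollagen peptidase gene ADAMTS2, SCG5, NPIPA7 and the read-through loci DNAAF4-CCPG1 and TNFSF12-TNFSF13. STC1 had 4 counts in Control and 74, 59 and 48 with ATF7IP hairpins 1 and 2 and the SETDB1 library, and ADAMTS2 had 18, 191, 240 and 280. Of these 8, ZNF114 and PSG9 had their highest count in the SETDB1 library with at least 3 times that of either ATF7IP hairpin.

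The 5 genes with the pattern most like that of CALB1 over the 4 libraries, by Euclidean distance between centred log2 CPM, were ZNF788P (distance 1.13), CCR5AS (1.22), RBP4 (1.84), CT45A1 (1.97) and GLRA3 (2.01). Their counts in the SETDB1 library were 52, 54, 23, 20 and 23, and in the other libraries each had at most 4 counts. None approached the 694 counts of CALB1. Those most like ZNF114 were RN7SL2 (0.865), PSG9 (0.919), DGKI (1.18), RN7SL1 (1.33) and TSPEAR-AS1 (1.37). PSG9 had 0 counts in Control, 59 and 50 with the ATF7IP hairpins and 227 with the SETDB1 hairpin, close to ZNF114 in each library, although it has near-identical copies between which fragments can be shared. RN7SL2, an RNA of the signal recognition particle, had 62, 426, 492 and 2011 counts. CALB1 and ZNF114 lay 4.56 apart on this measure.

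RNA composition moved with ZNF114. RN7SL genes made up 0.000225% of the Control counts, 0.00118% and 0.00127% with ATF7IP hairpins 1 and 2 and 0.00448% in the SETDB1 library, and ribosomal RNA genes took 0.325%, 0.489%, 0.408% and 0.721%. Control was lowest and the SETDB1 library highest in both, as for ZNF114, and the SETDB1 library was highest for CALB1 as well. Their part in the ZNF114 and CALB1 values was not tested. An alternative added after seeing the data left these genes out of the library totals, without TMM factors. The SETDB1 to Control ratios were then 24.1 for CALB1 and 51.5 for ZNF114. Ribosomal RNA took at most 0.721% of counts and RN7SL less, so this step could hardly move a ratio. It therefore says nothing of their part in these values.

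Most genes around each locus were within 2-fold of Control. Beside CALB1, the nearest tested genes were DECR1, a mitochondrial enzyme of fatty acid oxidation 4.97 kb away, and TMEM64, 539 kb away. DECR1 was at 38.1 CPM in Control, 40.3 and 38.6 with the ATF7IP hairpins and 47.2 with the SETDB1 hairpin, and TMEM64 at 60.8, 55.9, 54.4 and 76.1 CPM. The log2 fold change of DECR1 in SETDB1 knockdown was 0.31 ± 0.29 (edgeR adjusted p = 1), against 4.59 for CALB1. NBN, a DNA repair gene, was the neighbour above 1 CPM in Control that lay farthest below it, at 79.2 CPM in Control and 42.3 with the SETDB1 hairpin (log2 fold change −0.90 ± 0.28, edgeR adjusted p = 1). Of the 16 nearest tested genes, 8 on each side, 15 were within 2-fold of Control in SETDB1 knockdown, 0 were called, and the median log2 fold change was −0.01, against −0.000774 over all tested genes. The exception, ATP6V0D2, had 23 counts in Control, 0 and 14 with the ATF7IP hairpins and 64 in the SETDB1 library. It was the farthest of the 16, at 3900 kb, and RBM12B on the other side lay 3650 kb away. Not all of the 16 are thus close to CALB1, while those of ZNF114 reached 514 kb at most.

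Beside ZNF114, the nearest tested genes were CARD8-AS1, an antisense RNA 11.9 kb before it, and CCDC114, a cilium gene 8.84 kb after it. CARD8-AS1 was at 2.30 CPM in Control, 2.08 and 2.62 with the ATF7IP hairpins and 3.01 with the SETDB1 hairpin. CCDC114 was at 0.432, 0.567, 0.443 and 0.604 CPM in the same order. Their fitted log2 fold changes in SETDB1 knockdown were 0.39 and 0.48, where that of ZNF114 was 6.61. The next gene, EMP3, a membrane protein gene, was at 22.6 CPM in Control, 31.2 and 30.9 with the ATF7IP hairpins and 35.2 with the SETDB1 hairpin (log2 fold change 0.64 ± 0.30, edgeR adjusted p = 1). Of the 16 nearest, 15 were within 2-fold of Control in SETDB1 knockdown and 0 were called, with a median of 0.09. SYNGR4, the exception, had 14 counts in Control, 5 and 0 with the ATF7IP hairpins and 0 in the SETDB1 library. Over all genes tested, 5.97% were fitted at least 2-fold higher and 5.66% at least 2-fold lower in this comparison.

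The annotation places other genes over both loci. ZNF114-AS1, a long noncoding RNA on the opposite strand, shares 1752 bases with the start of ZNF114 (48262900 to 48271832 on chromosome 19), and LOC124901976 lies inside CALB1 (90061191 to 90066282 on chromosome 8). Neither symbol is in the table. Whether counting used strand is not given in the sources used here, so fragments of these RNAs and of the members cannot be told apart.

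No other tested gene of the calcium-binding list had a fitted fold change in SETDB1 knockdown as large as that of CALB1, which was chosen for it. Calretinin, the closest relative of calbindin, is encoded by CALB2, which had 26 counts in Control, 35 and 32 with the ATF7IP hairpins and 88 with the SETDB1 hairpin. The CALB2 ratio of SETDB1 knockdown to Control was 3.07 (95% exact interval 1.27 to 8.51), and the gene was not called (log2 fold change 1.72, edgeR adjusted p = 1). S100G, the small intestinal calbindin, had 3 counts in ATF7IP hairpin 2 and 0 elsewhere, and PVALB, which encodes parvalbumin, was at 0 in all 4 libraries. Of 35 calcium-binding genes besides CALB1, 25 were tested and 0 were called in any of the 3 comparisons. Over all tested genes 0.0769% were called in ATF7IP knockdown, 0.0710% in SETDB1 knockdown and 0.166% between the knockdowns, so a count of 0 among 25 is near the background and is no result about the list. The median log2 fold change of these 25 in SETDB1 knockdown was 0.23, with 19 above 0 (76.0%, against 49.5% of all tested genes). At least 2-fold higher were 2 of the 25, CALB2 and NECAB2, against 5.97% of all tested genes, and at least 2-fold lower was 1, HPCA, against 5.66%. HPCA, which encodes the neuronal calcium sensor hippocalcin, had 15 counts in Control, 12 and 23 with the ATF7IP hairpins and 7 with the SETDB1 hairpin. NECAB2 had 21 counts in Control, 94 and 162 with the ATF7IP hairpins and 105 with the SETDB1 hairpin. The abundant calmodulin gene CALM2 was at 830.4 CPM in Control, 935 and 589 with the ATF7IP hairpins and 864 with the SETDB1 hairpin, and CALU, which encodes calumenin of the endoplasmic reticulum, at 713, 504, 841 and 728 CPM.

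Calcium pumps, channels and exchangers work with calbindin where calcium crosses epithelia. Of 24 such genes 20 were tested, and 12 were above 0 in SETDB1 knockdown with a median log2 fold change of 0.07. At least 2-fold higher were 2, SLC8A2 and SLC8A3, against 5.97% of all tested genes, and 0 were 2-fold lower, against 5.66%. SLC8A2 had 7 counts in Control, 7 and 0 with the ATF7IP hairpins and 22 with the SETDB1 hairpin. SLC8A3 had 0, 18, 7 and 6 counts in the same order, so it was under the floor in Control and in the SETDB1 library. In that comparison 0 of the 20 were called, near the 0.0710% of all tested genes. TRPV5 and TRPV6, the entry channels of such epithelia, were at 0 in every library, and ATP2B1, the plasma membrane pump that exports calcium, was at 208 CPM in Control, 134 and 157 with the ATF7IP hairpins and 207 with the SETDB1 hairpin. Vitamin D raises calbindin in intestine and kidney. The vitamin D receptor gene VDR was at 26.9 CPM in Control, 24.5 and 37.6 with the ATF7IP hairpins and 29.98 with the SETDB1 hairpin, and the receptor's usual target CYP24A1 was at 0 in all 4. Of 13 vitamin D genes 8 were tested, and 0 were called in SETDB1 knockdown, again near the 0.0710% of all tested genes. The median was 0.08 and 4 of the 8 were above 0. At least 2-fold higher was 1, against 5.97% of all tested genes, and 0 were 2-fold lower, against 5.66%. The higher gene was CYP3A4, a drug-metabolizing enzyme gene. CYP3A4 had 0 counts in Control, 0 and 7 with the ATF7IP hairpins and 20 with the SETDB1 hairpin.

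Of 12 distal tubule genes besides CALB1, 10 were at or under 12 counts in every library and 6 were at 0, including UMOD, SLC12A1, FXYD2 and TRPV5. SLC12A3 made up most of their sum, which was 21.1 CPM in Control, 24.0 and 5.00 with the ATF7IP hairpins and 4.17 with the SETDB1 hairpin. Of the 3 tested, 2 were fitted at least 2-fold higher in SETDB1 knockdown and SLC12A3 at least 2-fold lower (log2 fold change −2.60), against 5.97% and 5.66% of all tested genes, and 0 were called, against 0.0710%. KCNJ1, a potassium channel gene, had 14 counts in Control, 39 and 50 with the ATF7IP hairpins and 37 with the SETDB1 hairpin, and TRPM6, a magnesium channel gene, had 4, 3, 0 and 12. KCNJ1 was thus above Control in all 3 knockdown libraries, while TRPM6 did not pass the floor in any. Of 17 neuronal genes besides CALB1, 5 were at 0 in every library, STMN2, ELAVL4, GAD2, SLC17A6 and INA. The neuronal sum was 75.8 CPM in Control, 63.1 and 67.4 with the ATF7IP hairpins and 67.99 with the SETDB1 hairpin, so Control was highest. Of 11 tested, 7 were above 0 in SETDB1 knockdown (63.6%, against 49.5% of all tested genes), 3 were at least 2-fold higher (5.97% of all), 0 were at least 2-fold lower (5.66%) and 0 were called (0.0710%). The 3 were the neurofilament gene NEFM, with 0 counts in Control, 11 and 6 with the ATF7IP hairpins and 24 with the SETDB1 hairpin, the Purkinje cell gene PCP2, with 4, 0, 7 and 13, and the glutamate transporter gene SLC17A7, with 24, 22, 18 and 66. These 3 were named for being higher in SETDB1 knockdown, so their likeness to CALB1 follows from the pick. Of more abundant members, SNAP25 went from 18.4 CPM in Control to 10.1 with the SETDB1 hairpin and GAD1 from 24.0 to 17.6. MAP2 went from 18.3 to 20.2 CPM and TUBB3 from 11.8 to 15.9. The part of distal tubule and neuronal cells in the CALB1 values was not tested. Of 14 testis and germline genes, 11 were at or under 12 counts in every library, and their sum was between 0.773 and 1.25 CPM.

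For ZNF114 the natural setting is the zinc finger family. Of 584 other genes with a ZNF symbol 430 were tested, and 0 were called in any of the 3 comparisons, against 0.0769% of all genes in ATF7IP knockdown, 0.0710% in SETDB1 knockdown and 0.166% between the knockdowns. In SETDB1 knockdown 281 of 430 were above 0 (65.3%) with a median of 0.14, against 49.5% of all tested genes. In ATF7IP knockdown 57.2% were above 0, with a median of 0.07, against 52.0% of all. Among the ZNF genes within 5 Mb of ZNF114, 40 of 67 were tested, and 31 of those were above 0 in SETDB1 knockdown, with a median of 0.25. In ATF7IP knockdown 16 of the 40 were above 0, with a median of −0.14. In SETDB1 knockdown 2 of the 40 were at least 2-fold higher, ZNF229 and ZNF28, against 5.97% of all tested genes, and 2 at least 2-fold lower, ZNF613 and ZNF528, against 5.66%. ZNF229 had 94 counts in Control, 50 and 133 with the ATF7IP hairpins and 219 with the SETDB1 hairpin, and ZNF28 had 0, 4, 6 and 14. ZNF613 had 26, 9, 11 and 4 counts in the same order, and ZNF528 had 15, 3, 0 and 4, so both were highest in Control.

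Among the 431 tested ZNF genes with ZNF114 included, 34 were at or under 12 counts in Control, and 5 of these (1.16% of 431) were above 12 counts in all 3 knockdown libraries. Over all tested genes this pattern was met by 175 of 16900 (1.04%), and with ATF7IP hairpin 1, hairpin 2 or the SETDB1 library as the low one by 0.959%, 0.651% and 0.811%. The 5 genes, named after their values were seen, were ZNF114, ZNF556, ZNF253, ZNF56 and the read-through locus ZNF670-ZNF695. ZNF556 was nearest to ZNF114, with 8 counts in Control, 42 and 74 with the ATF7IP hairpins and 141 with the SETDB1 hairpin. ZNF253 had 6, 20, 18 and 44 counts. ZNF114 had the lowest Control count and the highest SETDB1 count of the 5, but these are the values that chose it.

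Of 21 genes of the SETDB1 pathway 20 were tested. Against Control 0 were called in either knockdown, near the 0.0769% and 0.0710% of all tested genes called with ATF7IP and SETDB1 hairpins. The targets of the hairpins were themselves not called against Control. SETDB1 had a log2 fold change of −1.99 with its hairpin and ATF7IP one of −1.67 with its own. A count of 0 called therefore does not mean that no gene changed. Between the knockdowns, where 0.166% of all genes were called, the 2 called were the targets of the hairpins, ATF7IP at 2.40 on the log2 scale (adjusted p = 0.00692 by edgeR) and SETDB1 at −2.04 (adjusted p = 0.038 by edgeR). The corepressor gene TRIM28 was at 326 CPM in Control, 391 and 288 with the ATF7IP hairpins and 260.3 with the SETDB1 hairpin. The heterochromatin protein gene CBX5 was at 525.5, 389, 490 and 462 CPM, and CHD4, a nucleosome remodeller, at 305, 286, 315 and 302 CPM. MPHOSPH8, which encodes a subunit of the HUSH silencing complex that works with SETDB1, was at 21.98 CPM in Control, 23.8 and 31.6 with the ATF7IP hairpins and 22.5 with the SETDB1 hairpin, a named gene chosen after its values were seen.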

How the data were processed

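The 4 libraries of polyA RNA were deposited as estimated counts (expected counts) per gene symbol, whole numbers without normalization. Of tools, StringTie 2.2.1, HISAT2 2.2.1 and DESeq2 1.34.0 are listed with the build hg38, without role or order, per the submitters' processing notes, and the annotation and counting are not given in the sources used here. Control genes piled up at 4 counts (489 genes, against 288 at 3 and 265 at 5), from which 4 counts were taken as 1 fragment. Counts below this also occurred (309 genes at 1 and 257 at 2), so the assumption does not hold for every gene. CPM used TMM library sizes. Ratios carry exact 95% conditional binomial intervals on fragments, rounded to whole numbers.

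The quasi-likelihood test of edgeR (version 4.0.16, R 4.3.3) was run with 3 groups in 1 fit, after filterByExpr (minimum count 10), with Benjamini-Hochberg adjustment over 16900 genes and a threshold of 0.05. The single residual degree of freedom is the spread between the 2 ATF7IP libraries, and the other groups were taken to vary alike. The fit pools this spread over genes (median prior degrees of freedom 8.09). The p-values thus measure mostly the pooled spread and less that of the gene itself. Each value after ± is the size of the log2 fold change divided by the square root of its F statistic. The SE of DESeq2 for SETDB1 knockdown against Control was larger, 0.79 for CALB1 and 1.44 for ZNF114. Alternatives were DESeq2 1.42.0 and limma 3.58.1 (log2 CPM, prior count 2), other scalings, no filter, and libraries left out.

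The members and lists were chosen with earlier results of these data known. Named were the members, both knockdown targets, the 5 genes of most alike pattern (centred log2 CPM), the nearest tested genes, called list members, up to 4 abundant members a list, and CALB2, S100G, TRIM28 and CYP24A1. Positions are from RefSeq (GRCh38.p14), with 27656 of 28278 symbols matched.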

Additional observations from a re-analysis of the deposited data

How the results depend on the processing

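Of 34 values of CALB1 and ZNF114 under other scalings, filters, tools and left-out libraries, 33 kept their direction and their side of the threshold or stayed within their interval; the SETDB1 comparisons among them were judged by the intervals of their ratios, not by a call. The exception was ZNF114 in ATF7IP knockdown, called by DESeq2 with a log2 fold change of 4.74. The calls of CALB1 and ZNF114 in SETDB1 knockdown against Control were lost with DESeq2 size factors, with no filter and with limma-trend. That of CALB1 between the knockdowns was lost with limma-trend. The values of the SETDB1 library chose the genes, so these calls are no test of them. Leaving out an ATF7IP hairpin gave 46.9 to 86.3 for the CALB1 ratio of SETDB1 to ATF7IP knockdown and 3.75 to 3.81 for that of ZNF114. Against Control it gave log2 ratios of −1.83 to −0.95 for CALB1 and 3.76 to 3.79 for ZNF114, with no test, since no residual degrees of freedom remain. With 1 count taken as 1 fragment the ZNF114 ratio of SETDB1 knockdown to Control was 103.6.

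Counts of called genes depended on the method. For ATF7IP knockdown 13 became 3 with DESeq2 size factors, 1 with no filter, 160 with DESeq2, 5 with limma-trend and 34 without the SETDB1 library. For SETDB1 knockdown 12 became 7, 0, 48 and 6 in that order of methods, and between the knockdowns 28 became 11, 8, 173 and 9. Counts without 1 ATF7IP hairpin were not run, for the reason above. No paired analysis was possible because Control and SETDB1 knockdown have 1 library each and share fewer than 2 replicate numbers with ATF7IP knockdown. Depth limits ZNF114 in Control and CALB1 in ATF7IP hairpin 1, both under 12 counts.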
